A study of Mus musculus with 9 samples.

Results

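The unfolded protein and amino acid stress genes are 10 mouse genes of the cell's response to misfolded protein and to shortage of amino acids. They were chosen by symbol, and all 10 were found among the 55401 gene rows of the count tables and among the 18514 genes tested. Of these, 4 form the endoplasmic reticulum (ER) arm, with Hspa5, Xbp1, Herpud1 and Sdf2l1. The other 6 form the ATF4 arm, with Atf4, Ddit3, Trib3, Atf3, Asns and Chac1. The muscle studied was the gastrocnemius of the calf, taken from wild-type FVB mice aged 2 to 3 months at 7 weeks after an injection into it. The AAV-GFP-MBNL1∆ group received an adeno-associated virus (AAV) that carries green fluorescent protein and MBNL1∆, an altered form of the RNA-binding protein MBNL1 that the series title calls a decoy. The AAV-GFP group received a vector with green fluorescent protein alone, and the saline group received no vector. Each group held 3 libraries, and the labels used here name neither the promoter of the vectors, the dose nor the sex of the animals. All mice were wild type and none carries the repeat expansion of myotonic dystrophy, the disease in the series title.

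When unfolded protein builds up in the ER, the sensor IRE1 (gene Ern1) splices Xbp1 mRNA into a form that encodes an active transcription factor, and the sensor ATF6 is cut into another. Both raise chaperones such as BiP, the product of Hspa5. Another sensor, PERK, and the amino acid sensor GCN2 phosphorylate the translation factor eIF2α, which favours translation of ATF4. ATF4 then raises genes of amino acid synthesis and import, aminoacyl-tRNA synthetases and stress regulators such as Ddit3 and Trib3. Because splicing of Xbp1 and translation of Atf4 are the regulated steps, the mRNA level of either gene does not by itself report the activity of its protein.

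Response elements of these pathways have known letters, and 3 of them were searched on both strands of the RefSeq promoter window of each gene (GRCm38.p6, 250 bases before to 50 after the annotated start). All 10 genes had a window, of 32851 windows in all. The ER stress response element, CCAAT and CCACG with 9 free bases between them, which ATF6 binds together with NF-Y, was in the window of 1 of the 10 genes and in 0.119% of all windows. The CEBP-ATF response element that ATF4 binds, searched as TGATGNAA, was in 5 of the 10 and in 3.97% of all windows. The core of the unfolded protein response element, TGACGTGG, was in 0 of the 10 and in 0.676% of all windows. No 2 of these matches overlapped. The 30 bases around each match are shown because Chac1 and Asns, which moved in opposite directions, carry the same element, with the match in capitals and the strand of the gene:
Hspa5, ER stress response element, chr2:34772020-34772049, plus strand: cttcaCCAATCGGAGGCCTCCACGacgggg
Chac1, CEBP-ATF element, chr2:119351038-119351067, plus strand: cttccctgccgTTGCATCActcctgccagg
Asns, CEBP-ATF element, chr6:7693214-7693243, minus strand: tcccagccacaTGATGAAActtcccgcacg
Atf3, CEBP-ATF element, chr1:191183425-191183454, minus strand: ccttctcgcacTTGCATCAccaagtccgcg
Trib3, CEBP-ATF element, chr2:152344028-152344057, minus strand: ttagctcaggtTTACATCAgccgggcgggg
Herpud1, CEBP-ATF element, chr8:94386306-94386335, plus strand: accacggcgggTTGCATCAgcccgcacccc

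In Asns the element reads along the gene's strand, and in the other 4 genes it reads on the opposite strand. The matches begin 193 bases before the RefSeq start in Chac1, 112 in Herpud1, 110 in Atf3, 65 in Hspa5 and 23 in Asns, and Trib3 carries it just after the start. Those of Hspa5 and Asns lie inside exons of longer GENCODE M21 transcripts. The Atf3 window sits at a start site inside the span that GENCODE gives the gene. A match says only that the letters are there.

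The members lie on 8 chromosomes, in GRCm38 coordinates. Hspa5 spans chr2:34771970-34777547 and Xbp1 chr11:5520659-5525893, both on the plus strand. Herpud1 spans chr8:94386438-94395377 on the plus strand and Sdf2l1 chr16:17130138-17132383 on the minus strand. In the ATF4 arm, Atf4 spans chr15:80255184-80257541, Ddit3 chr10:127290774-127296288 and Chac1 chr2:119351229-119354381, all on the plus strand. Trib3 spans chr2:152337422-152344032, Atf3 chr1:191170296-191218039 and Asns chr6:7675169-7693254, all on the minus strand. Only Ddit3 shares exon bases with other genes: 68 bases (3.97% of its exons) with Mars on the opposite strand, 13 with Gm4189, and 105 (6.13%) with a second identifier of the same symbol that had 0 counts in all libraries. The strand setting of the counting is not given in the sources used here, so how reads in the bases shared with Mars were assigned is not known.

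Libraries held 44603618 to 76970849 counts in genes, and levels are given in CPM, a read count relative to the TMM-scaled size of its library. Sex-linked genes set the AAV-GFP-MBNL1∆ libraries apart: Xist, which is transcribed from an inactive X chromosome, was at 0.0182 to 0.0902 CPM there, against 105 to 136 CPM in the other 6 libraries. Vector and sex therefore cannot be told apart in either comparison that involves AAV-GFP-MBNL1∆. The AAV-GFP libraries were unlike each other in immune markers. Summed CPM of 8 plasma cell markers was 41.1 to 109 in AAV-GFP-MBNL1∆, 13.1 to 1008 in AAV-GFP and 11.5 to 11.9 in saline, with Mzb1 listed at 0 in all 9 libraries. Among these markers, Jchain, the joining chain of secreted antibodies, was at 90.6, 43.3 and 29.5 CPM in AAV-GFP-MBNL1∆ 1, 2 and 3, at 225, 870 and 2.08 CPM in AAV-GFP 1, 2 and 3, and at 0.212 to 0.585 CPM in saline. B cell markers added up to 2.20 to 8.06 CPM in AAV-GFP-MBNL1∆, 1.57 to 49.0 in AAV-GFP and 0.121 to 0.546 in saline. T cell markers added up to 4.52 to 10.1 CPM in AAV-GFP-MBNL1∆, 4.47 to 58.3 in AAV-GFP and 0.560 to 0.793 in saline. Summed macrophage markers were 132 to 200 CPM in AAV-GFP-MBNL1∆, 140 to 1399 in AAV-GFP and 60.6 to 81.3 in saline, and summed muscle fibre markers 153003 to 178954, 81119 to 133925 and 136658 to 175917 CPM. In every list of immune markers AAV-GFP 2 was the highest library and, among the AAV-GFP libraries, AAV-GFP 3 the lowest. In whole muscle, a change in the number of cells of a type and a change in RNA per cell cannot be told apart.

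A level per kilobase of exon allowed the members to be ordered within each group. In AAV-GFP-MBNL1∆, Atf4 led at 72.5 ± 5.31 CPM per kb (SD, n = 3), followed by Herpud1 at 55.1 ± 3.55 and Hspa5 at 52.7 ± 1.98, whose libraries overlapped. Chac1 came next at 31.8 ± 6.0 CPM per kb, above Xbp1 at 17.9 ± 0.280 with no overlap. The low end held Ddit3 at 6.02 ± 0.507, Sdf2l1 at 4.30 ± 0.385 and Atf3 at 3.84 ± 1.08, then Asns at 0.731 ± 0.0759 and Trib3 at 0.475 ± 0.121 CPM per kb. Of these, only Sdf2l1 and Atf3 overlapped.

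In AAV-GFP, Hspa5 was at 81.2 ± 21.6 CPM per kb and overlapped Atf4 at 60.9 ± 4.97, and Herpud1 at 47.3 ± 6.04 overlapped Xbp1 at 43.3 ± 18.7. Sdf2l1 at 12.7 ± 11.6, Chac1 at 10.4 ± 4.98, Atf3 at 10.1 ± 2.75 and Ddit3 at 7.58 ± 0.241 CPM per kb overlapped their neighbours in the order. In saline, Atf4 at 59.2 ± 2.89, Hspa5 at 57.7 ± 9.61 and Herpud1 at 52.1 ± 0.998 CPM per kb overlapped, and Xbp1 followed at 28.3 ± 3.28. Chac1 at 12.7 ± 3.17, Atf3 at 8.81 ± 5.71 and Ddit3 at 7.73 ± 0.702 CPM per kb overlapped, above Sdf2l1 at 2.83 ± 0.728. Asns and Trib3 were the least abundant members in all 3 groups, and only in AAV-GFP-MBNL1∆ did every library have more Chac1 than Xbp1 per kb.

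**Figure D1:**
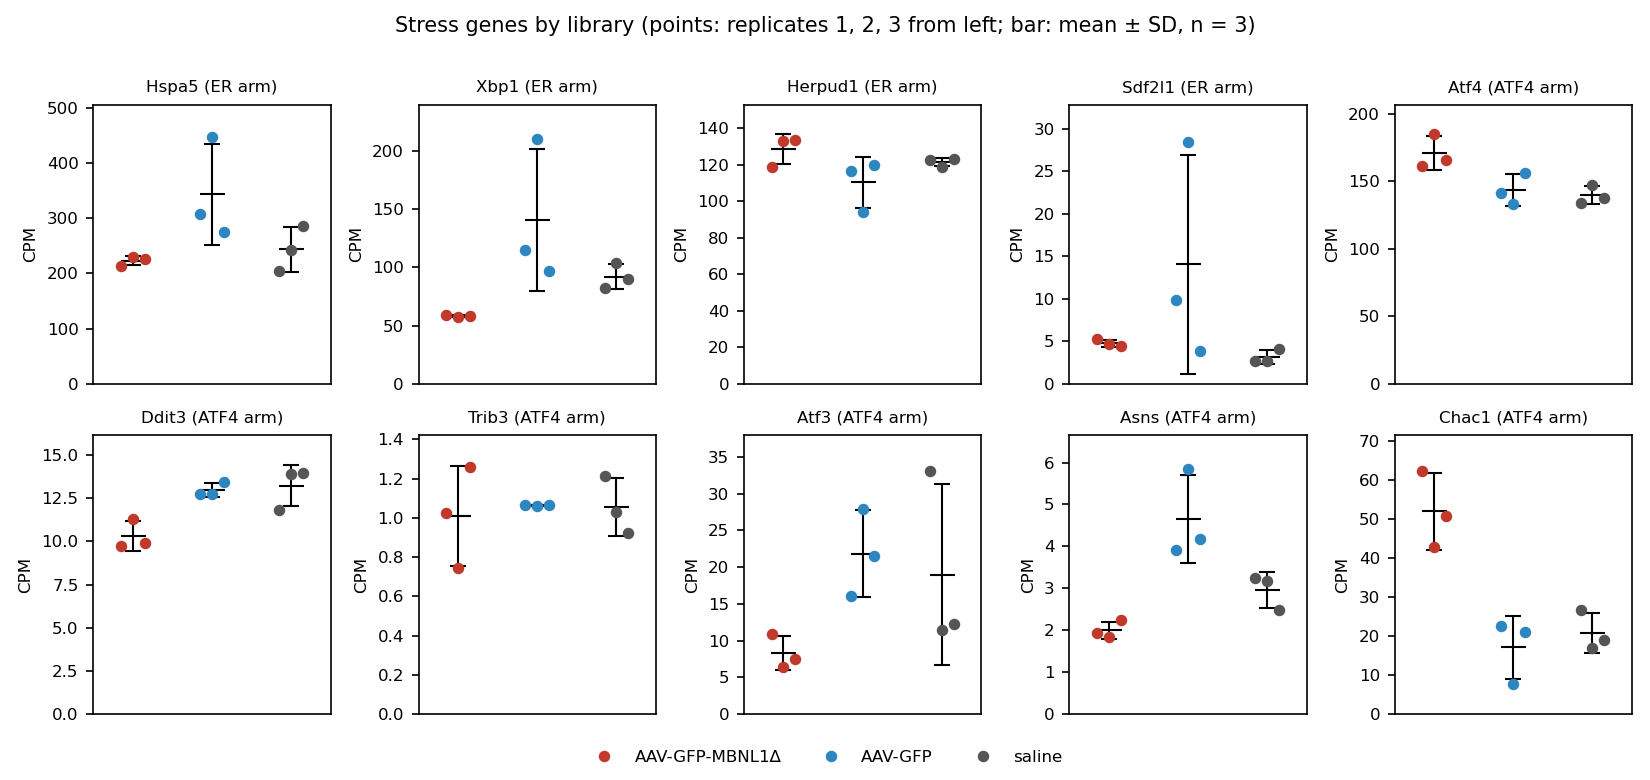
Level of each of the 10 genes in CPM, 1 panel per gene with its own linear axis from 0, groups from left to right AAV-GFP-MBNL1∆, AAV-GFP and saline. Points are libraries and bars the mean ± SD of 3; Chac1 is at 42.8 to 62.4 CPM in AAV-GFP-MBNL1∆ and at most 26.7 CPM elsewhere, and AAV-GFP 2 is the highest library for Hspa5, Xbp1, Sdf2l1 and Asns.

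Against the control vector, muscle with AAV-GFP-MBNL1∆ had lower Xbp1, Hspa5, Asns and Ddit3 and higher Chac1. This comparison asks what the MBNL1∆ sequence adds to a vector that also makes green fluorescent protein. At an adjusted p under 0.05 in edgeR's quasi-likelihood test, 5 of the 10 members were called, 1 higher and 4 lower. The background was 21.1% of all genes tested, 10.8% higher and 10.3% lower. The libraries of the 2 groups did not overlap for 7 of the 10, against 38.4% of all genes tested.

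In the ER arm, Xbp1 was at 58.7, 57.0 and 58.3 CPM in the AAV-GFP-MBNL1∆ libraries, against 115, 210 and 97.1 CPM in the AAV-GFP libraries. The groups did not overlap, the decoy libraries were nearly equal, and AAV-GFP 2 was the highest. Xbp1 fell by 1.28 on the log2 scale (SE 0.26, adjusted p = 0.0150). The call was lost without AAV-GFP-MBNL1∆ 1, 2 or 3 in turn (adjusted p = 0.0509, 0.0538 and 0.0666). Without AAV-GFP 2, the library richest in immune markers, the adjusted p was 7.33e-04.

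Hspa5 encodes BiP, the main chaperone of the ER lumen. It was at 214, 230 and 226 CPM in the AAV-GFP-MBNL1∆ libraries, against 307, 447 and 276 CPM in the AAV-GFP libraries. Again no library of one group reached the other. Hspa5 fell by 0.62 (log2, SE 0.19, adjusted p = 0.0490), a call near the threshold: with each library left out in turn it held only without AAV-GFP 3 (adjusted p = 0.0130) and otherwise reached up to 0.140, without AAV-GFP-MBNL1∆ 3. Plasma cells, which secrete antibody, are known for high Xbp1 and BiP, and their summed markers were higher in AAV-GFP 1 and 2 than in any decoy library. In AAV-GFP 3 the marker sum, 13.1 CPM, was below every decoy library (41.1 to 109 CPM). Its Hspa5 at 276 CPM and Xbp1 at 97.1 CPM were above every decoy library. The part of those markers in the result was not tested.

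The remaining ER arm genes were not called. Sdf2l1, a BiP cofactor, was at 5.25, 4.62 and 4.43 CPM in the AAV-GFP-MBNL1∆ libraries, against 9.85, 28.5 and 3.81 CPM in the AAV-GFP libraries, which lay on both sides of the decoy values (log2 fold change −1.56, SE 0.60, adjusted p = 0.0927). Without AAV-GFP 3 its adjusted p was 0.00658. Herpud1, a membrane protein of the complex that removes misfolded proteins, was at 119, 133 and 134 CPM in the AAV-GFP-MBNL1∆ libraries, against 117, 94.1 and 120 CPM in the AAV-GFP libraries. The groups overlapped slightly, with a log2 fold change at 0.22 (SE 0.11, adjusted p = 0.156), opposite in sign to the other 3 ER arm genes.

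In the ATF4 arm, Asns and Chac1 moved apart. Asns makes asparagine. It was at 1.92, 1.84 and 2.23 CPM in the AAV-GFP-MBNL1∆ libraries, against 3.91, 5.85 and 4.18 CPM in the AAV-GFP libraries. It fell by 1.22 on the log2 scale (SE 0.19, adjusted p = 0.00644) and was the only member called in each of the 9 refits that left out a library, with adjusted p from 0.00326 to 0.0290. These are low values, but the lowest library still held 101 reads of Asns.

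Chac1, an enzyme that breaks down glutathione and a target of ATF4, was at 62.4, 42.8 and 50.9 CPM in the AAV-GFP-MBNL1∆ libraries, against 22.6, 7.73 and 21 CPM in the AAV-GFP libraries. All decoy libraries were higher, and AAV-GFP 2 was the lowest of all 9. Chac1 rose by 1.61 (log2, SE 0.38, adjusted p = 0.0255). Leaving out AAV-GFP-MBNL1∆ 1, 2 or 3 moved the adjusted p to 0.0726, 0.0504 and 0.0803, and without AAV-GFP 2 it was 0.00813.

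Ddit3 encodes CHOP, a transcription factor of prolonged ER stress. It was at 9.73, 11.3 and 9.90 CPM in the AAV-GFP-MBNL1∆ libraries, against 12.8, 12.7 and 13.5 CPM in the AAV-GFP libraries. The difference was small and the groups did not overlap. Ddit3 fell by 0.33 (log2, SE 0.10, adjusted p = 0.0463), and the call was lost in each of the 9 refits without a library, with adjusted p from 0.0505 to 0.155. Hspa5 and Ddit3 were also not called with DESeq2's size factors, with no filter on low counts, by limma-voom or with only these 2 groups fitted. Of the other 3 calls, Asns held in each of those fits, Xbp1 was lost with only the 2 groups, and Chac1 with only the 2 groups and with no filter. DESeq2's own test and quality-weighted limma-voom called all 5, along with 28.1% and 50.2% of all genes.

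For Atf3, a stress transcription factor, the 2 groups also stood apart, at 10.9, 6.46 and 7.46 CPM in AAV-GFP-MBNL1∆, against 16.1, 27.9 and 21.5 CPM in AAV-GFP. Its log2 fold change of −1.40 (SE 0.44) missed the threshold (adjusted p = 0.0537). Atf4 itself was at 162, 185 and 166 CPM in AAV-GFP-MBNL1∆, against 141, 133 and 156 CPM in AAV-GFP, with no overlap (log2 fold change 0.25, SE 0.10, adjusted p = 0.0934). Trib3, which binds ATF4 and AKT, was near 1 CPM throughout, at 1.02, 0.746 and 1.26 CPM in AAV-GFP-MBNL1∆ and 1.07, 1.06 and 1.06 CPM in AAV-GFP (log2 fold change −0.07, SE 0.22, adjusted p = 0.829). With 41 to 85 reads per library it had the least depth of the 10.

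**Figure D2:**
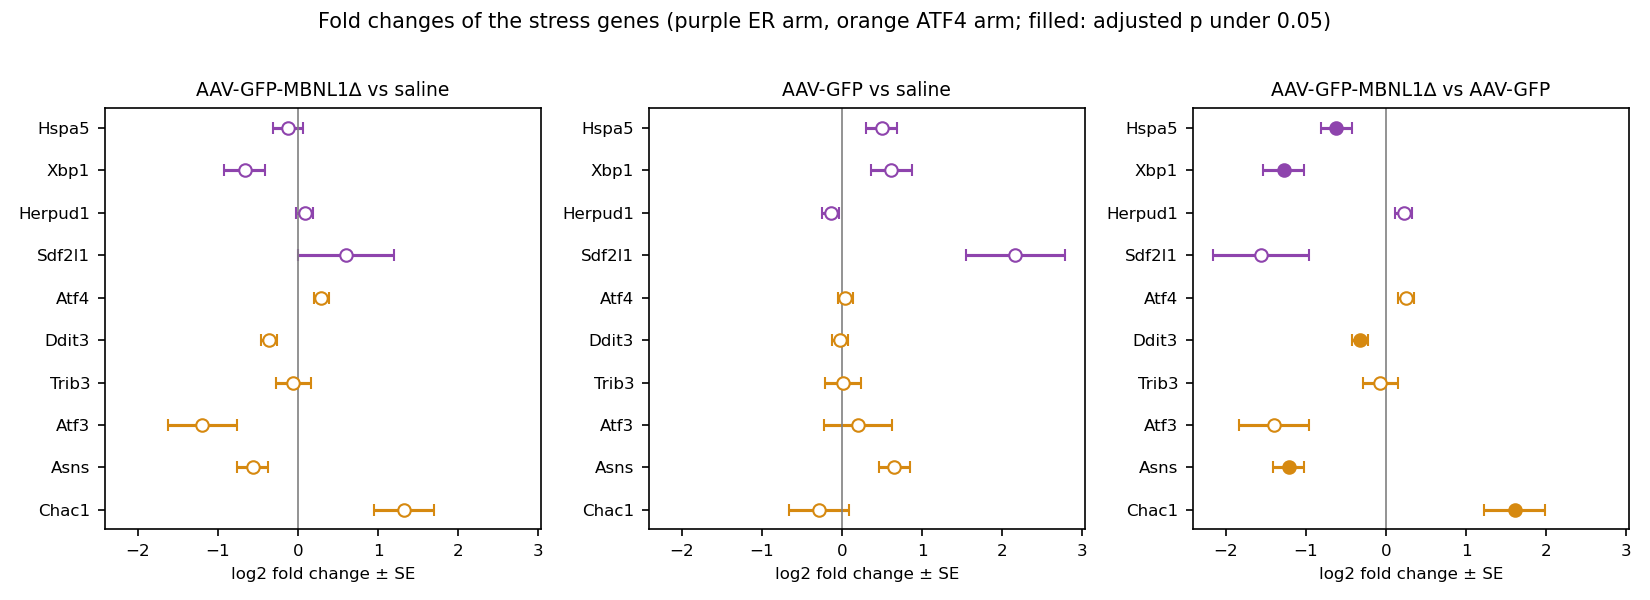
Log2 fold change of each gene with its standard error in the 3 comparisons, purple for the ER arm, orange for the ATF4 arm, and filled where the adjusted p was under 0.05. Filled points are in the panel of AAV-GFP-MBNL1∆ against AAV-GFP, where Hspa5, Xbp1, Ddit3 and Asns lie below 0 and Chac1 above it.

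Against saline, no member passed the test with the decoy vector. Chac1, Atf4 and Sdf2l1 lay above saline in every AAV-GFP-MBNL1∆ library, and Xbp1, Ddit3, Atf3 and Asns below it. This comparison sets the decoy vector beside muscle with no vector and shares the AAV-GFP-MBNL1∆ libraries with the comparison above. By edgeR 0 of 10 members were called, with 9.37% of all genes tested as background. At an unadjusted p under 0.05 there were 6 of the 10, against 26% of all genes tested. DESeq2 called 4 (Atf4, Ddit3, Atf3 and Chac1), limma-voom 0, and limma-voom weighted by library quality 5 (Xbp1, Atf4, Ddit3, Asns and Chac1). Over all genes the shares called by these were 14.2%, 8.46% and 29.5%. The groups did not overlap for 7 members, 3 above and 4 below, against 42.7% of all genes tested.

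Chac1 averaged 52.0 ± 9.82 CPM in AAV-GFP-MBNL1∆, against 26.7, 16.9 and 18.9 CPM in the saline libraries, with no overlap (log2 fold change 1.32, SE 0.38, adjusted p = 0.0657). Asns averaged 2.00 ± 0.208 CPM in AAV-GFP-MBNL1∆, below all saline libraries at 3.25, 3.16 and 2.47 CPM (−0.57, SE 0.19, adjusted p = 0.103). The direction of both was that seen against AAV-GFP.

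Ddit3 averaged 10.3 ± 0.868 CPM in AAV-GFP-MBNL1∆, below the saline libraries at 11.9, 13.9 and 14 CPM (log2 fold change −0.36, SE 0.10, adjusted p = 0.0559). Atf4 averaged 171 ± 12.5 CPM in AAV-GFP-MBNL1∆, above the saline libraries at 134, 147 and 138 CPM (0.29, SE 0.10, adjusted p = 0.0995). So the mRNA of the factor lay higher and that of its target Ddit3 lower in the same libraries, neither past the threshold.

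Atf3 averaged 8.27 ± 2.32 CPM in AAV-GFP-MBNL1∆ against 33.2, 11.4 and 12.3 CPM in saline, where saline 1 stood far above the other 2 (log2 fold change −1.20, SE 0.43, adjusted p = 0.126). Trib3 averaged 1.01 ± 0.257 CPM in AAV-GFP-MBNL1∆, against 1.21, 1.03 and 0.923 CPM in saline, with a log2 fold change at −0.06 (SE 0.22, adjusted p = 0.896).

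In the ER arm, Hspa5 averaged 223 ± 8.37 CPM in AAV-GFP-MBNL1∆, against 204, 243 and 285 CPM in the saline libraries, a range that contains all decoy values (log2 fold change −0.13, SE 0.19, adjusted p = 0.720). Xbp1 averaged 58.0 ± 0.909 CPM in AAV-GFP-MBNL1∆, below all saline libraries at 82.5, 104 and 89.9 CPM (−0.67, SE 0.26, adjusted p = 0.142). Sdf2l1 averaged 4.77 ± 0.427 CPM in AAV-GFP-MBNL1∆, just above the saline libraries at 2.71, 2.63 and 4.07 CPM (0.60, SE 0.60, adjusted p = 0.577). The groups overlapped for Herpud1, at 128 ± 8.28 CPM in AAV-GFP-MBNL1∆, against 122, 119 and 123 CPM in saline (0.08, SE 0.11, adjusted p = 0.689).

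These values rested on the shared estimate of spread, to which the uneven AAV-GFP libraries contribute. Fitted with only the 2 groups compared, 6 of the 10 members were called (Xbp1, Sdf2l1, Atf4, Ddit3, Asns and Chac1), but so were 25.7% of all genes tested. Without AAV-GFP 2, 5 were called (Xbp1, Atf4, Ddit3, Asns and Chac1), beside 21.7% of all genes tested, and without AAV-GFP 3, only Ddit3, beside 12%.

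**Figure D3:**
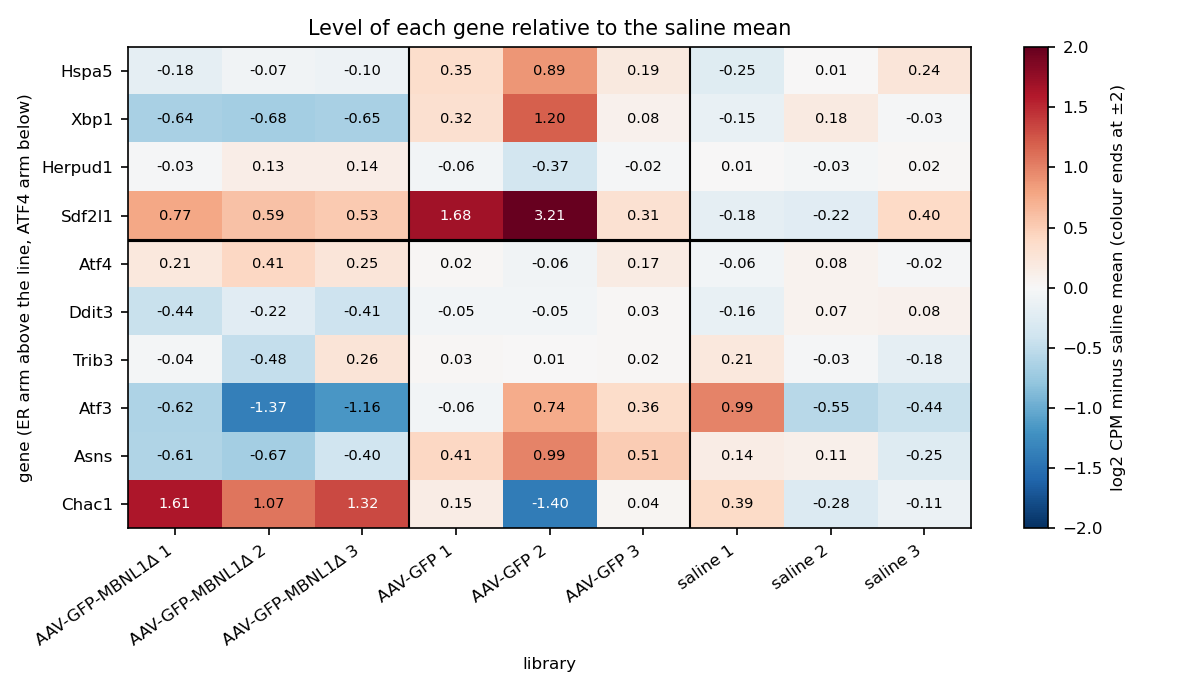
Log2 CPM of each gene (rows, ER arm above the line) in each library (columns) minus the mean of the saline libraries; colour ends at ±2. Chac1 is above 1 in all AAV-GFP-MBNL1∆ libraries while Asns, Atf3 and Ddit3 are below 0 there, and the AAV-GFP 2 column holds both the highest value, 3.21 for Sdf2l1, and the lowest, −1.40 for Chac1.

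The control vector against saline asks what the AAV and green fluorescent protein did without MBNL1∆, and shares its libraries with the comparisons above. Hspa5, Xbp1 and Sdf2l1 lay highest in AAV-GFP 2 and next in AAV-GFP 1, and the SD of each within AAV-GFP was of similar size to the difference between the group means. By edgeR 0 of 10 members were called, as were 0 (0%) of all genes tested. At an unadjusted p under 0.05 there were 4 members, against 22% of all genes tested, and genes at that level numbered 4065. DESeq2 called 2 members (Sdf2l1 and Asns) and 1825 genes, limma-voom 0 and 0, and quality-weighted limma-voom 4 members (Hspa5, Xbp1, Sdf2l1 and Asns) and 5464 genes. The shares of all genes tested were 8.66%, 0% and 29.5%. Only Asns had groups that did not overlap, against 27.1% of all genes tested.

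Asns averaged 4.65 ± 1.05 CPM in AAV-GFP and 2.96 ± 0.427 CPM in saline (SD, n = 3 each; log2 fold change 0.65, SE 0.19, adjusted p = 0.121). Hspa5 averaged 343 ± 91.2 CPM in AAV-GFP and 244 ± 40.6 CPM in saline (0.49, SE 0.19, adjusted p = 0.193). Xbp1 averaged 141 ± 60.8 CPM in AAV-GFP and 92.0 ± 10.6 CPM in saline (0.61, SE 0.25, adjusted p = 0.213). For both ER arm genes AAV-GFP 3 lay within the saline range.

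Sdf2l1 had the largest log2 fold change among the members and the widest spread, at 14 ± 12.9 CPM in AAV-GFP and 3.14 ± 0.807 CPM in saline (2.16, SE 0.62, adjusted p = 0.12). The rest lay closer to 0. Herpud1 had a log2 fold change of −0.14 (adjusted p = 0.435), Chac1 of −0.29 (0.649), Atf3 of 0.20 (0.787), Atf4 of 0.04 (0.813), Ddit3 of −0.03 (0.877) and Trib3 of 0.01 (0.979).

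Which AAV-GFP library was included decided the calls. Without AAV-GFP 3, Hspa5 (adjusted p = 0.0475), Xbp1 (0.0321), Sdf2l1 (0.00315) and Asns (0.0435) were called higher, where 15.3% of all genes tested were called higher too. Without AAV-GFP 2, 0 of the 10 were called.

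**Figure D4:**
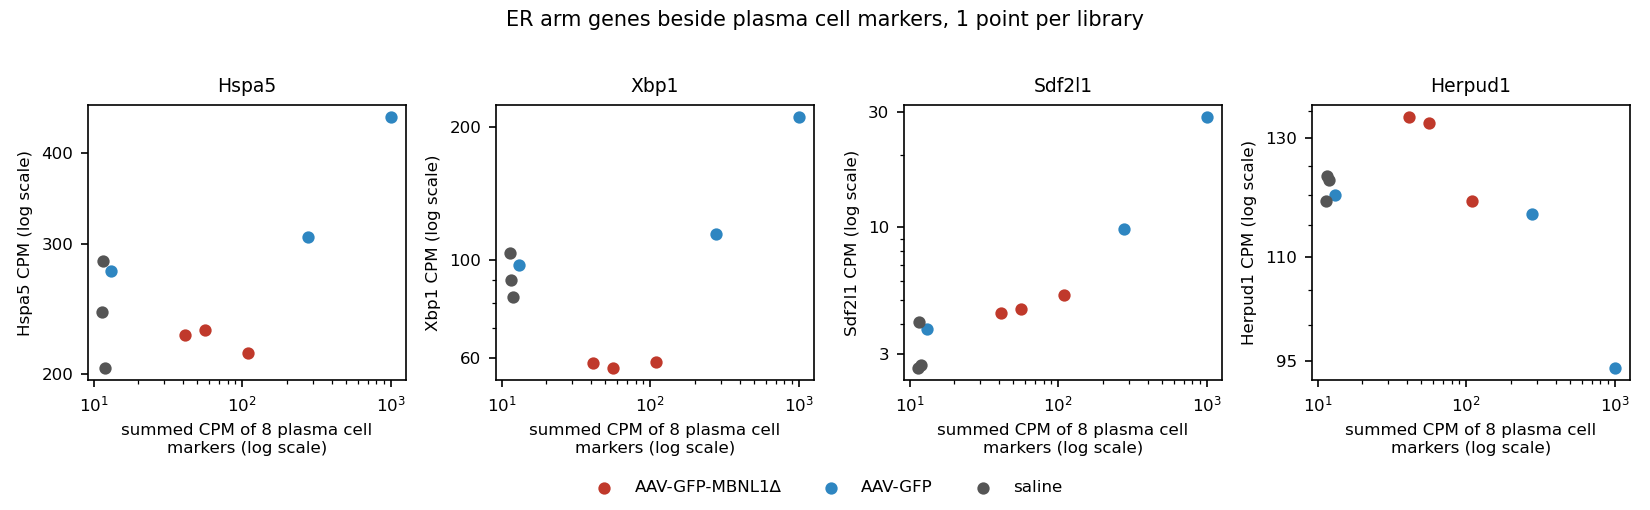
Level of the 4 ER arm genes in CPM (log axis) against the summed CPM of 8 plasma cell markers (log axis), 1 point per library. AAV-GFP 2 and 1 have the highest marker sums and the highest Hspa5, Xbp1 and Sdf2l1, AAV-GFP 3 lies by the saline libraries, and the AAV-GFP-MBNL1∆ libraries lie at 41.1 to 109 CPM of markers with the lowest Xbp1.

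Beside the plasma cell sums of 277, 1008 and 13.1 CPM in AAV-GFP 1, 2 and 3, Sdf2l1 was at 9.85, 28.5 and 3.81 CPM and Xbp1 at 115, 210 and 97.1 CPM. Herpud1 ran the other way in that group, at 117, 94.1 and 120 CPM. Chac1 also was lowest where the marker sum was highest. The part of plasma cells or other immune cells in these levels was not tested.

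Each arm is described here by the median over its members of the log2 level relative to the saline mean. In the ER arm this median was −0.10, 0.03 and 0.02 in AAV-GFP-MBNL1∆ 1, 2 and 3, then 0.33, 1.04 and 0.14 in AAV-GFP 1, 2 and 3, and from −0.17 to 0.13 in saline. In the ATF4 arm it was −0.24, −0.35 and −0.07 in AAV-GFP-MBNL1∆, 0.02, −0.02 and 0.10 in AAV-GFP, and from −0.15 to 0.18 in saline. The ER arm thus lay above the saline range in AAV-GFP 1 and 2, while the ATF4 arm lay inside its saline range in all AAV-GFP libraries. With the decoy vector the ER arm lay inside its saline range, and the ATF4 arm lay below its own in AAV-GFP-MBNL1∆ 1 and 2. By the mean over its members, the ATF4 arm was at 0.02, −0.21 and −0.02 in AAV-GFP-MBNL1∆ 1, 2 and 3, and from −0.15 to 0.25 in saline. For AAV-GFP 3 the median and the mean differed: the ER arm's median was just above the highest saline library, at 0.13, and its mean of 0.14 was below that library's mean of 0.16.

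A median hides how far the members of an arm lay apart. Within the ATF4 arm the highest and lowest member were 2.23, 2.44 and 2.48 apart on the log2 scale in AAV-GFP-MBNL1∆ 1, 2 and 3, with Chac1 the highest each time, 0.47, 2.39 and 0.49 in AAV-GFP 1, 2 and 3, and 0.52 to 1.14 in saline. Within the ER arm they were 1.41, 1.27 and 1.18 apart in AAV-GFP-MBNL1∆, 1.73, 3.58 and 0.33 in AAV-GFP, and 0.26 to 0.43 in saline, so the widest gap of all was in the ER arm of AAV-GFP 2. The ratio of Chac1 to Asns per kb, chosen after the values were seen, was 54.1, 38.9 and 38.1 in AAV-GFP-MBNL1∆, 9.65, 2.21 and 8.37 in AAV-GFP and 13.7, 8.90 and 12.8 in saline. In the ER arm, the ratio of Hspa5 to Herpud1 per kb was 0.991, 0.954 and 0.932 in AAV-GFP-MBNL1∆, 1.45, 2.62 and 1.27 in AAV-GFP and 0.917, 1.13 and 1.28 in saline.

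Further genes of the pathways were read from 8 lists with 110 genes, of which 106 were tested. In AAV-GFP-MBNL1∆ against AAV-GFP, 14 were called higher and 16 lower (28.3%, beside 21.1% of all genes tested). Against saline, 7 were higher and 6 lower (12.3%, beside 9.37%). In AAV-GFP against saline 0 of 106 were called by edgeR and 0 by limma-voom, with 37 at an unadjusted p under 0.05, 19 by DESeq2 and 46 by quality-weighted limma-voom, where the shares over all genes were 22%, 8.66% and 29.5%. Without AAV-GFP 3, 36 were called higher (beside 15.3% of all genes) and 1 lower in that comparison, and without AAV-GFP 2, 0. Most calls that involve the decoy vector were also lost without some library: of the 30 called against AAV-GFP, 8 held in each of the 9 refits, and of the 13 called against saline, 2 did. The 8 were Sars, Gars, Stc2, Vldlr, Nupr1, Gpt2, Eif2ak2 and Selenos, and the 2 were Sars and Stc2.

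The aminoacyl-tRNA synthetases, which load amino acids onto tRNAs and are known targets of ATF4, were called only higher with the decoy vector in the main fit. Against AAV-GFP, 6 of 12 were higher and 0 lower (Sars, Gars, Cars, Aars, Tars and Yars), beside 10.8% higher and 10.3% lower over all genes tested. The median log2 fold change over the 12 was 0.31, beside −0.06 over all genes tested. Against saline, 4 of 12 were higher and 0 lower (Sars, Gars, Aars and Cars), beside 4.76% and 4.6% over all genes tested. The list's median there was 0.19 beside 0.02. With a library left out the count was 2 to 6 against AAV-GFP, lowest without AAV-GFP-MBNL1∆ 3, and 1 to 5 against saline, lowest without AAV-GFP-MBNL1∆ 3 or saline 1. Without AAV-GFP 3, 5 were higher and 1 lower against AAV-GFP, beside 12.5% and 22.4% of all genes tested. Quality-weighted limma-voom called 10 higher and 1 lower there, beside 24% and 26.2%. Sars, the seryl-tRNA synthetase, was at 98.7, 118 and 106 CPM in AAV-GFP-MBNL1∆, against 72.3, 70.3 and 74.8 CPM in AAV-GFP and 70.1, 73.9 and 75.3 CPM in saline. Both vector-free and control-vector muscle thus lay below every decoy library. The log2 fold change was 0.57 against AAV-GFP (SE 0.087, adjusted p = 0.00505) and 0.56 against saline (SE 0.087, adjusted p = 0.00671). Gars, for glycine, was at 102, 107 and 106 CPM in AAV-GFP-MBNL1∆, against 78.4, 78.8 and 77.5 CPM in AAV-GFP (0.42, SE 0.073, adjusted p = 0.00828). In AAV-GFP against saline the list's median was −0.04, and the synthetase with the smallest p, the interferon-inducible Wars, stood at a log2 difference of 0.50 (SE 0.19, adjusted p = 0.190).

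Other targets of ATF4 moved both ways with the decoy vector, as Asns and Chac1 did. Among 12 tested genes, Ddit4 and Vldlr were higher and Stc2 lower against both groups, and Nupr1 was lower against AAV-GFP. Stc2, a secreted glycoprotein, was at 2.51, 2.13 and 2.52 CPM in AAV-GFP-MBNL1∆, against 9.19, 4.91 and 9.72 CPM in AAV-GFP and 13.9, 13.0 and 8.43 CPM in saline. It fell by 1.73 against AAV-GFP (log2, SE 0.28, adjusted p = 0.00716) and by 2.30 against saline (SE 0.29, adjusted p = 0.00287). Ddit4, an inhibitor of mTORC1 signalling, was at 12.2, 15.8 and 22.8 CPM in AAV-GFP-MBNL1∆, against 5.38, 7.02 and 5.89 CPM in AAV-GFP and 5.33, 10 and 6.20 CPM in saline. It rose by 1.47 and 1.24 (adjusted p = 0.0137 and 0.0327). The first call was lost without AAV-GFP-MBNL1∆ 3 (0.0514), and the other without saline 1 or 3, AAV-GFP 1 or AAV-GFP-MBNL1∆ 2 or 3 (up to 0.117). Vldlr, a lipoprotein receptor, rose by 0.85 against AAV-GFP (SE 0.15, adjusted p = 0.00841). Its call against saline (adjusted p = 0.0309) held only without AAV-GFP 2 or 3 (otherwise up to 0.125).

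Enzymes of amino acid synthesis were just as mixed. Against AAV-GFP, 2 of 12 were higher, Gpt2 and Psph, and 2 lower, Phgdh and Psat1. Gpt2, a mitochondrial alanine aminotransferase, was at 362, 348 and 378 CPM in AAV-GFP-MBNL1∆, against 184, 147 and 166 CPM in AAV-GFP (log2 fold change 1.13, SE 0.19, adjusted p = 0.00811). Phgdh and Psat1 make serine. Psat1 was at 2.44, 2.20 and 2.01 CPM in AAV-GFP-MBNL1∆, against 5.49, 14.1 and 3.10 CPM in AAV-GFP, highest in AAV-GFP 2 (−1.78, SE 0.48, adjusted p = 0.0372), and its call held only without AAV-GFP 2 or 3 (otherwise up to 0.126). Against saline, 1 of 12 was called, Aldh1l2, a mitochondrial folate enzyme, which fell by 0.87 (SE 0.21, adjusted p = 0.0331, up to 0.125 without saline 1 or 2 or a decoy library). Among 8 tested amino acid transporters, Slc1a5, Slc1a4 and Slc6a9 were lower against AAV-GFP, and Slc1a5 and Slc6a9 against saline. The call of Slc1a4 (adjusted p = 0.0497) held only without AAV-GFP 3 (otherwise up to 0.156). Those of Slc6a9 were lost without AAV-GFP-MBNL1∆ 1 or 2. Against AAV-GFP its call was also lost without AAV-GFP 1 (up to 0.0651), and against saline without any saline library (up to 0.0781). The calls of Slc1a5 were lost without AAV-GFP-MBNL1∆ 2 or 3 against AAV-GFP (up to 0.0904) and without these, saline 1, saline 2 or AAV-GFP 1 against saline (up to 0.122). Slc1a5, which imports glutamine, was at 23.5, 17.0 and 18.7 CPM in AAV-GFP-MBNL1∆, against 32.1, 41.6 and 36.0 CPM in AAV-GFP and 42.3, 39.9 and 25.8 CPM in saline.

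In the ER, 18 further chaperones and folding enzymes were measured. Their median log2 fold change was −0.57 for AAV-GFP-MBNL1∆ against AAV-GFP, 0.00 for AAV-GFP-MBNL1∆ against saline and 0.52 for AAV-GFP against saline. By edgeR, 2 of the 18 were called lower against AAV-GFP, Canx and Manf, and 0 in either comparison with saline. Against saline, 0 had an unadjusted p under 0.05 with the decoy vector and 9 with AAV-GFP. DESeq2 called 0 and 8 against saline, limma-voom 0 and 0, and quality-weighted limma-voom 1 and 13. For the decoy vector against saline the shares over all genes were 26% at the unadjusted p, 14.2% by DESeq2, 8.46% by limma-voom and 29.5% with quality weights. For AAV-GFP against saline the shares over all genes were 22% at the unadjusted p, 8.66% by DESeq2 and 29.5% with quality weights. Calnexin (Canx), a lectin chaperone, was at 118, 102 and 115 CPM in AAV-GFP-MBNL1∆, against 159, 201 and 142 CPM in AAV-GFP (log2 fold change −0.58, SE 0.14, adjusted p = 0.0235). Its call was lost without AAV-GFP 1 or without any 1 of the decoy libraries (adjusted p up to 0.0833). Creld2, an ER stress-inducible protein of the same list, was at 11, 9.40 and 8.87 CPM in AAV-GFP-MBNL1∆, 19.6, 56.5 and 8.99 CPM in AAV-GFP and 6.25, 7.34 and 8.62 CPM in saline, the same order of libraries within AAV-GFP as for Sdf2l1. Without AAV-GFP 3, 15 of the 18 were lower in AAV-GFP-MBNL1∆ against AAV-GFP and 12 were higher in AAV-GFP against saline, beside 22.4% and 15.3% of all genes tested.

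Degradation and import genes gave few calls. Among genes of ER-associated degradation, Herpud2 was higher and Selenos and Edem1 lower against AAV-GFP, while Ube2j1 was higher and Selenos lower against saline. Selenos, a selenoprotein that links the ER membrane to the p97 ATPase, was at 14.8, 16.0 and 15.5 CPM in AAV-GFP-MBNL1∆, against 26.1, 34.0 and 28.1 CPM in AAV-GFP and 21, 24.3 and 30.3 CPM in saline. It fell by 0.93 against AAV-GFP (SE 0.15, adjusted p = 0.00600) and by 0.71 against saline (adjusted p = 0.0202, up to 0.0806 without saline 2 or 3 or a decoy library). Edem1, which hands glycoproteins to degradation, was at 19.9, 15.1 and 14.3 CPM in AAV-GFP-MBNL1∆, against 55.7, 144 and 17.5 CPM in AAV-GFP and 15.2 to 17.1 CPM in saline, and its call against AAV-GFP (adjusted p = 0.0438) held only without AAV-GFP 3. Of 16 genes of import into the ER, Srpr was higher and Sec63 and Sec61b lower against AAV-GFP, and Sec63 lower against saline.

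Stress sensors and their regulators stand above both arms. Against AAV-GFP, 3 of 13 regulators were lower and 1 higher with the decoy vector, beside 10.3% lower and 10.8% higher over all genes. Eif2ak2, the interferon-induced kinase PKR, was at 6.78, 6.20 and 6.82 CPM in AAV-GFP-MBNL1∆, against 13.0, 20.5 and 11 CPM in AAV-GFP and 8.10, 8.98 and 8.53 CPM in saline, and fell by 1.17 against AAV-GFP (SE 0.21, adjusted p = 0.00899). Atf6 fell by 0.51 (SE 0.12, adjusted p = 0.0255) and Ern1 by 0.61 (SE 0.18, adjusted p = 0.0446), and Eif2ak1, the haem-regulated kinase, rose by 0.29 (SE 0.078, adjusted p = 0.0343). These calls were lost without any 1 decoy library, and in part without others: for Atf6 AAV-GFP 1 (up to 0.0831), for Ern1 all except AAV-GFP 3 (up to 0.131) and for Eif2ak1 saline 1, saline 2 and AAV-GFP 1 (up to 0.117). Against saline 0 of 13 were called by edgeR or DESeq2 or limma-voom, with 2 at an unadjusted p under 0.05 and 4 by quality-weighted limma-voom (26% and 29.5% of all genes).

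**Figure D5:**
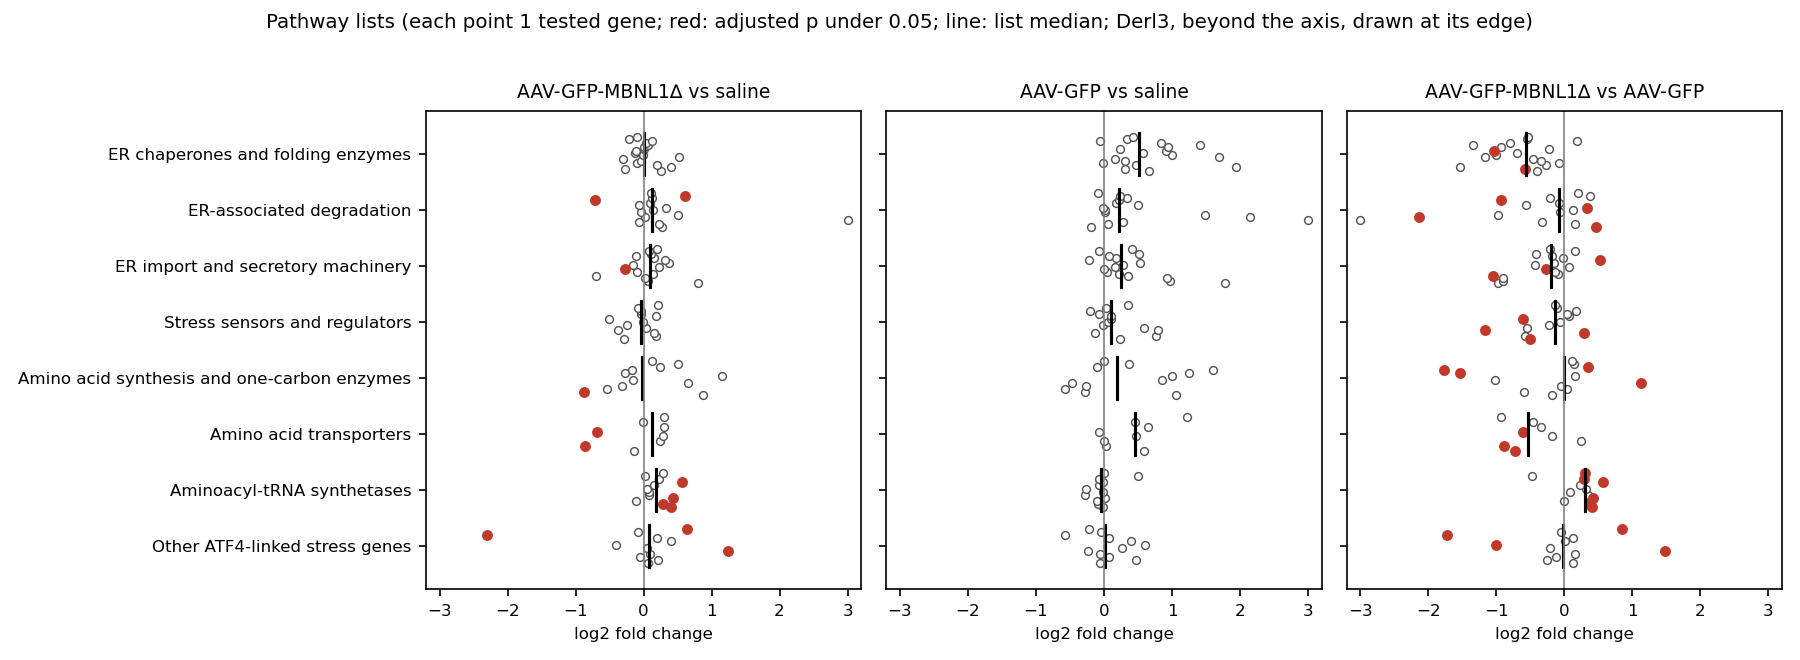
Log2 fold change of each tested gene of the 8 lists (rows) in the 3 comparisons, red where the adjusted p was under 0.05, with the list's median as a line; Derl3, beyond the axis, is drawn at its edge. The synthetase row has its 6 and 4 red points right of 0 with the decoy vector, and the chaperone row has its median at 0.52 for AAV-GFP against saline and −0.57 for AAV-GFP-MBNL1∆ against AAV-GFP.

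For each member the protein-coding genes with the closest pattern over the 9 libraries were sought among 12207 genes with a mean of at least 1 CPM, by root mean square distance between centred log2 CPM. This is a description, and the libraries differ in depth, sex-linked genes and immune markers as set out above. Hspa5 was nearest to Slbp (0.0701) and Bri3bp (0.0704), while its own spread around its mean was 0.330. Xbp1 was nearest to Tlr3 (0.127) and Rad51ap1 (0.129), and Herpud1 to Ybx1 (0.0246) and Oma1 (0.0293). The ER stress-inducible Creld2 was second nearest to Sdf2l1 (0.152), after Bcat1 (0.144). In the ATF4 arm, Atf4 was nearest to Clpp (0.0405), Ddit3 to Hnrnpa1 (0.0640), Trib3 to Cdk5rap2 (0.104) and Asns to Tmeff1 (0.134). The nearest to Atf3 was Slc1a3 at 0.314 and to Chac1 Snph at 0.222, where these members' own spreads were 0.765 and 0.872. No member was among the 2 nearest genes of another member.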

How the data were processed

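The authors deposited read counts per gene, with a separate table for every library (9 in all). As the labels' protocols state, libraries were made from 250 ng of total RNA with an mRNA kit. Per the submitters' processing notes, cutadapt 2.10, STAR 2.7.5a, HTSeq 0.12.4, DESeq2 1.30.0 and mm10 were used. The sources used here give neither an annotation release nor the strand setting. The 5 rows naming no gene (16.8% to 18.3% of reads) were left out. Names and coordinates came from GENCODE M21 (GRCm38), where 55141 identifiers matched.

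A single model held all 9 libraries in edgeR 4.0.16 (R 4.3.3): TMM scaling, expression filter, robust quasi-likelihood F test, 1 mean per group, 6 residual degrees of freedom, Benjamini-Hochberg adjustment over 18514 genes. Every adjusted p is from this fit unless a tool is named. CPM uses TMM-scaled library sizes, and log2 levels add 0.5 counts. Alternatives were DESeq2 1.42.0, its size factors, limma-voom (limma 3.58.1) with and without library quality weights, no filter, a fit of only the 2 groups compared, a block for the replicate number, and each library left out. The procedure was tested on simulated data with the same spread of a gene in every library. That test does not cover libraries as uneven as those of AAV-GFP. Whether each library is a separate animal is not stated in the labels, and p-values then reflect only library-to-library spread, which may be technical. When a library is left out, the remaining ones are assumed to share 1 spread.

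The members and lists were chosen with earlier results of these data known. Named genes are the 10 members, in each list and comparison up to 3 genes with the smallest p, the 2 nearest patterns per member, and markers. Called list genes outside this (Aars, Tars, Yars, Ddit4, Psph, Herpud2 and Ern1 against AAV-GFP, Cars against saline) and the values of Creld2 with the decoy vector were named after their values were seen. Reads of the vectors and splicing of Xbp1 were not analysed here. Some results are not reported here.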

Additional observations from a re-analysis of the deposited data

How the results depend on the processing

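Of the 160 values of members under alternatives in each comparison, 138 stayed on their side of the threshold in AAV-GFP-MBNL1∆ against saline, 150 in AAV-GFP against saline and 116 in AAV-GFP-MBNL1∆ against AAV-GFP, where 36 lost the call and 8 gained it. No call turned round in direction. For AAV-GFP-MBNL1∆ against saline, members called moved from 0 to 4 with the DESeq2 test, 5 with limma-voom and quality weights and 6 with only the 2 groups compared, and genes called from 1734 to 2738, 5458 and 4584. Leaving out 1 library gave 0 to 5 members and 500 to 4047 genes. For AAV-GFP against saline, members moved from 0 to 2 with the DESeq2 test and 4 with quality weights, and genes from 0 to 1825 and 5464. Leaving out 1 library gave 0 to 4 members and 0 to 3262 genes. For AAV-GFP-MBNL1∆ against AAV-GFP, members moved from 5 to 3 with DESeq2 size factors, 2 with no filter, 8 with the DESeq2 test, 3 with limma-voom and 2 with only the 2 groups compared (Atf3 and Asns). Genes moved from 3914 to 9294 with quality weights and 1159 with only the 2 groups. Leaving out 1 library gave 1 to 5 members and 826 to 6649 genes. Averaged over libraries, the ATF4 arm was at −0.22 in AAV-GFP-MBNL1∆ and 0.03 in AAV-GFP by the median of its members, and at −0.072 and 0.10 by their mean. The cause of these shifts was not tested, beyond that fits with fewer libraries have fewer degrees of freedom.

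Whether the replicate numbers pair the libraries is not stated in the labels, and 3 libraries per group cannot decide it. Deviations of same-numbered libraries correlated from −0.08 to 0.45 and of others from −0.44 to 0.28. Between the vector groups, same-numbered libraries correlated at 0.07, 0.17 and 0.45, and others from −0.44 to 0.28. With the replicate number as a block, members called were 1 (Chac1) for AAV-GFP-MBNL1∆ against saline, 0 for AAV-GFP against saline and 3 (Xbp1, Asns and Chac1) for AAV-GFP-MBNL1∆ against AAV-GFP, and 99 genes were called for AAV-GFP against saline. Depth limits Trib3 most, at 41 to 85 reads per library, and Sdf2l1 and Asns at 172 and 101 reads in their lowest.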
